A study of Mus musculus with 9 samples.

Results

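H3K27ac and cohesin contacts were set against each other in double-positive thymocytes of C57BL/6J (BL6) mice, using 4 of the 9 libraries of the study. HiChIP captures pairs of distant DNA segments that lie together in the nucleus and are bound by a chosen protein or histone mark. The group H3K27ac BL6 held 2 libraries made with an antibody to histone H3 acetylated at lysine 27 (Abcam ab4729). The group Smc1 BL6 held 2 libraries made with an antibody to the cohesin subunit Smc1 (Bethyl A300-055A). Both groups came from thymus of the same strain, sorted as live cells positive for CD4 and CD8, and both were mapped to the BL6 genome. No transgene or treatment is named for either group, and age and sex are not given in the sources used here. Libraries were chosen by strain and by the antibody field of the labels, because titles of H3K27ac samples carry the word Smc1. The antibody behind every result therefore rests on that field. The 2 Smc1 libraries are labelled as technical replicates of 1 biological replicate, while the 2 H3K27ac libraries are labelled as separate biological replicates. P-values involving Smc1 thus measure a spread that may be technical. Counts were PETs, the paired-end reads that join the anchors of a listed interaction, on chromosomes 1 to 19 with anchor midpoints at least 10 kb apart. The same groups from NOD/ShiLtJ (NOD) mice, with 2 libraries each, entered neither the fits nor the rules that chose genes and regions and are given beside the results. The NOD Smc1 libraries are likewise labelled as technical replicates of 1 biological replicate, so agreement with them is agreement with 1 sample. NOD coordinates were obtained on the genome of that strain and then shifted to the BL6 reference.

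Cohesin is a ring-shaped complex that extrudes loops of chromatin until it meets bound CTCF, and it is found along both active and silent chromosome regions. H3K27ac is deposited by the acetyltransferases p300 and CBP on nucleosomes beside active promoters and enhancers, and it is largely lacking from silent genes. At the double-positive stage thymocytes assemble the T cell receptor, test it against self peptides and commit to the CD4 or the CD8 lineage.

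The H3K27ac libraries were shallower than the Smc1 libraries. H3K27ac libraries 1 and 2 held 440896 and 1203733 PETs, and Smc1 libraries 1 and 2 held 1899656 and 2620621. Each table lists only interactions with at least 2 PETs and a q-value up to 0.05, so a contact that is not listed was under this limit and not measured as 0. Between 59.6% and 65.1% of the interactions rested on 2 PETs. H3K27ac library 1 stood apart by chromosome, with 1.78% of its PETs on chromosome 17 and 0.85% on chromosome 19. The other 3 libraries had 3.80% to 4.97% on chromosome 17 and 2.52% to 2.97% on chromosome 19. H3K27ac NOD library 1 had similarly low shares, 1.28% and 0.57%. Across genes, log2 PETs of H3K27ac library 1 correlated at r = 0.62 with H3K27ac library 2, at r = 0.56 with Smc1 library 1 and at r = 0.57 with Smc1 library 2. H3K27ac library 2 correlated at r = 0.79 and 0.75 with the Smc1 libraries, above its correlation with the other H3K27ac library. H3K27ac libraries of the same number resembled each other across strains. Library 1 correlated at r = 0.705 with H3K27ac NOD library 1, and library 2 at r = 0.823 with H3K27ac NOD library 2. Each value lay above that between the BL6 H3K27ac libraries, and what the number marks is not known. These are descriptions over genes that share depth and neighbouring anchors. With 2 libraries against 2, an exact two-sided permutation test cannot go below p = 0.333, so single measures are given per library. Cd4, Cd8a and Rag1, genes that define the sorted stage, had listed PETs in all 4 libraries, though contacts are also listed at silent genes. In bulk libraries, the share of cells with a contact and its frequency within each cell cannot be told apart.

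Contacts with H3K27ac reached gene start sites more often than contacts with Smc1. An anchor within 1 kb of a start site was present in 9.74% and 8.57% of PETs in H3K27ac libraries 1 and 2. In Smc1 libraries 1 and 2 the shares were 5.43% and 4.58%. Both H3K27ac values lay above both Smc1 values, at 1.83 times their mean (exact two-sided permutation p = 0.333, the smallest this design allows). PETs that joined a start site to another start site made up 0.71% and 0.36% of H3K27ac PETs and 0.17% and 0.11% of Smc1 PETs. In NOD the shares with an anchor at a start site were 10.4% and 10.3% for H3K27ac against 6.08% and 4.54% for Smc1. The 95% Wilson intervals of such shares reached at most 0.249 percentage points either side, and they cover counting error only.

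A few promoters serve as examples of start sites that only one antibody reached. Each is the 300-base window from 250 bases before to 50 bases after a start site, 5′ to 3′ on the coding strand, from RefSeq on GRCm38.p6, with every CG dinucleotide in capitals. Cd3d encodes a chain of the T cell receptor complex (chr9:44981536-44981835, plus strand), and Cd5 a receptor that dampens its signal (chr19:10738925-10739224, minus strand). Srsf5 encodes a splicing factor (chr12:80945249-80945548, plus strand), and Rnf166 a RING-type ubiquitin ligase (chr8:122476025-122476324, minus strand). These 4 start sites had an anchor in both H3K27ac libraries and in neither Smc1 library. Zic1 (chr9:91365719-91366018, minus strand) and Lhx1 (chr11:84525485-84525784, minus strand) encode transcription factors of the embryonic nervous system and kidney. Ptchd3, a gene of the patched-domain family (chr11:121829968-121830267, plus strand), is shown with them as a window of lower CG content. These 3 start sites had an anchor in both Smc1 libraries and in neither H3K27ac library. The examples were chosen after their anchors in all 8 libraries were seen, so their NOD anchors are a description only. Ptchd3 had an anchor in 1 of 2 NOD H3K27ac libraries, while the other 6 windows kept their pattern in NOD, which most genes with such a pattern did not.
Cd3d: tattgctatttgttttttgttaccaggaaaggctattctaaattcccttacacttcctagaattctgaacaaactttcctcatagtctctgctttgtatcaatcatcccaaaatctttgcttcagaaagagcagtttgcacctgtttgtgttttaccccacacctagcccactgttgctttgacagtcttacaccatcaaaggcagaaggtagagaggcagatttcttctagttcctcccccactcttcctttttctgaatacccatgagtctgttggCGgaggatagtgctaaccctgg
Cd5: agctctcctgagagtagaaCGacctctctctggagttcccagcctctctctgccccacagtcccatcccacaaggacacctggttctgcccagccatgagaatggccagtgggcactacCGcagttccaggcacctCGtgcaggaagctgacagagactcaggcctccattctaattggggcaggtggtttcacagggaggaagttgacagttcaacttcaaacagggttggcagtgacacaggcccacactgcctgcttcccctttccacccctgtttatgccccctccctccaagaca
Srsf5: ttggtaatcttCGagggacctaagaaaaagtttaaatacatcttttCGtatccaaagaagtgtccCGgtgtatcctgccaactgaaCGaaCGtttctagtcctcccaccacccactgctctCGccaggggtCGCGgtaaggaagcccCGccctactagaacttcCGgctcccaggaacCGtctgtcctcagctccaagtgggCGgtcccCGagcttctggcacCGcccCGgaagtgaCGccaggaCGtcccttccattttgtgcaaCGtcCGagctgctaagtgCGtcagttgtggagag
Rnf166: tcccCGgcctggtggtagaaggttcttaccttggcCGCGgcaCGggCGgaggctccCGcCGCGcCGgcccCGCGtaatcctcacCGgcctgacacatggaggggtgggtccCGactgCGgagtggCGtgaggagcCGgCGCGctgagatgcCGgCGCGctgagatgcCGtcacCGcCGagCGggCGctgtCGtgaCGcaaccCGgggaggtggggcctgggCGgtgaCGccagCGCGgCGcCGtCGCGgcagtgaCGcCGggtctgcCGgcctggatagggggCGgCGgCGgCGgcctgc
Zic1: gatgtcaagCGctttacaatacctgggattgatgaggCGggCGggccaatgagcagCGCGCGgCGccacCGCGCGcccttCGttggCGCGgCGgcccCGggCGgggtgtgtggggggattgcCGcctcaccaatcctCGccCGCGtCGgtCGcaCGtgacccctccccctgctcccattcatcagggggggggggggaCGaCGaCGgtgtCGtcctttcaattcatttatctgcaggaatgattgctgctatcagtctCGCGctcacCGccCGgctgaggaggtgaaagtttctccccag
Lhx1: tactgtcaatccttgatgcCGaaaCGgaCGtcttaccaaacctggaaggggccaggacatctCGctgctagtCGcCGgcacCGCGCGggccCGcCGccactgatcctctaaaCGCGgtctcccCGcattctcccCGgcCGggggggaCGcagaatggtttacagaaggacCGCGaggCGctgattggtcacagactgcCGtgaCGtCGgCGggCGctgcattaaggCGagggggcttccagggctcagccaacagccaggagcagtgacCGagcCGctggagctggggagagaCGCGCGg
Ptchd3: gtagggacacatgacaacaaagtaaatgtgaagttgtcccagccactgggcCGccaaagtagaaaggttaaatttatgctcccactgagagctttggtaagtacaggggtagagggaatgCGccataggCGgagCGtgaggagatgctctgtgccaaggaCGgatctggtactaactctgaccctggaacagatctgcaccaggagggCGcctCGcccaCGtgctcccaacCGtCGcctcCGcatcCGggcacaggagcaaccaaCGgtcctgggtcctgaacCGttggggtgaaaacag
Cd3d holds 1 CG and Cd5 holds 3, Srsf5 holds 20, and Rnf166 holds 44. Zic1 and Lhx1 hold 31 each, and Ptchd3 holds 14. All 3 Smc1 examples lie above the median of 5 CG over start sites with that pattern. MboI, the enzyme that cut the chromatin, recognises GATC, which occurs 1 time in the Lhx1 window, 2 times in the Ptchd3 window and 0 times in the other 5.

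Over all start sites, H3K27ac anchors were more frequent at CG-rich than at CG-poor sites, and Smc1 anchors were less frequent there. The table of start sites covered 20084 sites of 16456 genes. At sites with 0 to 4 CG dinucleotides, an anchor lay within 1 kb at 22.9% and 42.9% of sites in H3K27ac libraries 1 and 2, and at 54.8% and 49.2% in Smc1 libraries 1 and 2. At sites with 20 or more, the shares were 41.9% and 77.0% for H3K27ac and 49.0% and 34.5% for Smc1. H3K27ac library 2 reached CG-rich sites most often of the 4 libraries, and Smc1 library 2 least often. The Smc1 shares were highest between, at 65.4% and 57.5% of sites with 5 to 9 CG dinucleotides. The plot of start sites by CG content shows this opposite course. NOD libraries followed the same order for H3K27ac, from 21.9% and 26.8% at CG-poor sites to 54.3% and 63.1% at CG-rich sites. Of the NOD Smc1 libraries, the first was higher at CG-rich sites (47.3% and 53.6%) and the second lower (47.2% and 34.0%).

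**Figure D1:**
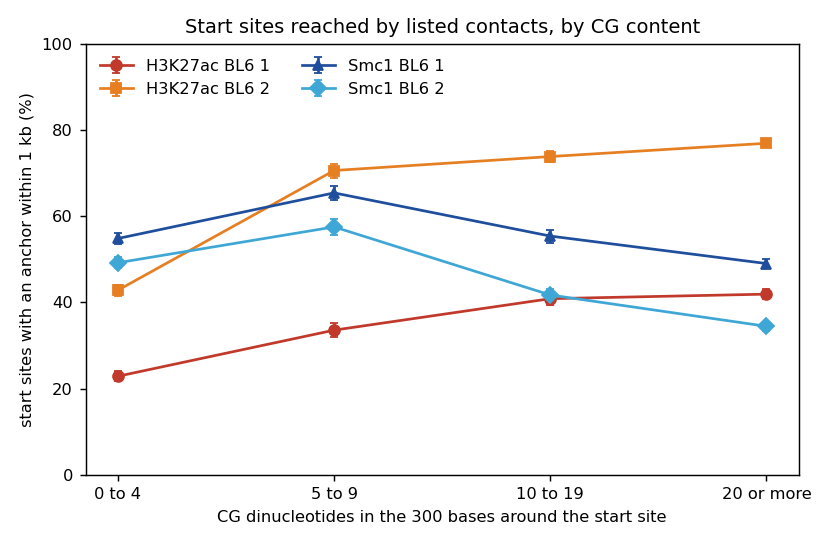
Share of start sites with an anchor within 1 kb (%, y axis) by the number of CG dinucleotides in the 300-base window (x axis), for the 4 BL6 libraries, with 95% Wilson intervals as bars. Both H3K27ac lines end higher than they begin (41.9% and 77.0% at the right), and both Smc1 lines end lower (49.0% and 34.5%).

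Base content moved together with this measure. Mean GC content was 44.2% in the CG-poorest class and 67.5% in the CG-richest, and the share of windows with a GATC site was 51.1% and 40.9%. Within windows that hold GATC, the shares from CG-poor to CG-rich ran from 25.2% to 45.5% and from 43.1% to 75.6% for H3K27ac. For Smc1 they ran from 56.4% to 51.2% and from 53.1% to 37.9%. Within windows without GATC they ran from 20.5% to 39.5% and from 42.6% to 77.9% for H3K27ac, and from 53.3% to 47.5% and from 45.2% to 32.1% for Smc1. The direction was the same with and without a GATC site in the window. GC content itself was not separated from CG content, and its part in the result was not tested. Smc1 anchors covered more of the genome, 737 and 596 Mb against 214 and 503 Mb for H3K27ac. The share of start sites that such coverage would meet by position alone was not computed. How far the share reached by either antibody exceeds that background was therefore not tested.

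Start sites that only one antibody reached differed in sequence. An anchor in both H3K27ac libraries and neither Smc1 library was found at 1682 start sites (8.37%), and the reverse at 1149 (5.72%). The H3K27ac sites had a median of 23 CG dinucleotides and the Smc1 sites a median of 5. These sites were picked by the BL6 anchors, so the NOD libraries are the ones that had no part in the choice. The NOD H3K27ac libraries resemble the BL6 H3K27ac libraries of the same number, so they may share traits of the libraries used for the choice. At the H3K27ac sites, NOD H3K27ac libraries had an anchor at 80.5% and 75.6%, and NOD Smc1 libraries at 37.8% and 14.1%. At the Smc1 sites the values were 13.7% and 18.0% for NOD H3K27ac and 67.5% and 67.0% for NOD Smc1. Over all start sites the NOD values were 41.0% and 49.6% for H3K27ac and 53.1% and 41.7% for Smc1. The NOD libraries therefore separated at these sites in the order of the BL6 libraries. All 4 BL6 libraries had an anchor at 2960 start sites, and none had one at 3470.

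Motif content was counted in the same 300-base windows, on both strands. The letters CCGGAAG, bound by ETS factors such as Ets1 and Gabpa, occurred in 420 of the 1682 H3K27ac sites, 36 of the 1149 Smc1 sites (3.13%) and 11.9% of all start sites. This motif contains CG, so it was also counted among windows with 20 or more CG dinucleotides. There it occurred in 27.9% of 1058 H3K27ac sites, 5.22% of 230 Smc1 sites and 20.4% of all 7450 windows of that class. The cyclic AMP response element TGACGTCA followed the same order in that class, at 6.71%, 0.43% and 3.95%. The GC box CCGCCC, bound by Sp and Klf factors, differed over all windows, at 65.5% of H3K27ac sites, 29.2% of Smc1 sites and 47.0% of all. Within the CG-rich class it was present in 77.2%, 80.9% and 81.5%, so the difference there was small and of opposite sign. With up to 9 CG dinucleotides it was present in 20%, 7.46% and 11.9%. The TATA box TATAAA occurred in 6.36% of H3K27ac sites, 21.5% of Smc1 sites and 12.7% of all start sites. Among windows with up to 9 CG dinucleotides it stood at 11.8%, 29.0% and 22.8%. Its order turned in the CG-rich class, at 4.44%, 2.61% (6 of 230 Smc1 sites) and 3.70%. The E-box CACGTG and the Runx letters TGTGGT were also counted. CACGTG occurred in 10.3% of H3K27ac sites, 6.27% of Smc1 sites and 7.89% of all. In windows with 20 or more CG dinucleotides it stood at 11.5%, 10.4% and 11.8%, so little of the difference was left there. With up to 9 it stood at 8.24%, 3.93% and 3.63%, so the difference remained. TGTGGT occurred in 11.0%, 15.8% and 14.8%. Its order turned in windows with up to 9 CG dinucleotides, at 25.3%, 18.5% and 21.2%, and in the CG-rich class it stood at 8.32%, 8.70% and 8.26%. The sites were picked by their anchors, the motifs were chosen after the sites were known, and neighbouring start sites of 1 gene share sequence, so these shares are a description without a test.

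Genes of different roles fell on different sides of this split. Of the 16456 genes with a start site, 8.82% had a site reached by both H3K27ac libraries and neither Smc1 library, and 6.5% had the reverse. A gene was counted if any of its start sites had the pattern, even if both antibodies reached another of its sites. Of the genes with the H3K27ac pattern 33.6% had it in NOD too, and of those with the Smc1 pattern 32.6%. Single genes are named here after their anchors were seen. Among 37 housekeeping genes 16 had the H3K27ac pattern and 0 the Smc1 pattern. The 16 included the ribosomal protein genes Rps2, Rps6, Rps18, Rpl4 and Rplp0, the glycolytic gene Gapdh and the RNA-processing genes Srsf3, Srsf5 and Ddx5. In NOD 7 of the 16 kept the pattern, and Hnrnpk, which encodes an RNA-binding protein, had the reverse. Among 38 genes of T cell receptor signalling 11 had the H3K27ac pattern. They were the receptor chains Cd3d, Cd3e, Cd3g and Cd247, the kinases Lck and Zap70, the adaptors Grb2 and Bcl10, and Cd5, Dgkz and Dusp6, which restrain the signal. Cd3d, Cd3e and Cd3g are neighbours on chromosome 9 and can share anchors. The phosphatase gene Ptprc, which encodes CD45, and Ubash3b had the Smc1 pattern. Lck, Dgkz and Ubash3b also had another start site with an anchor in all 4 BL6 libraries. In NOD 6 of the 11 kept the H3K27ac pattern, namely Cd3d, Cd3e, Cd3g, Cd247, Cd5 and Zap70, while Ptprc had anchors in all 4 NOD libraries. Of 21 genes for chromatin enzymes and acetyl-lysine readers 7 had the H3K27ac pattern and 0 the Smc1 pattern. They included the deacetylase genes Hdac4 and Hdac7, the reader gene Brd2 and the methyltransferase gene Kmt2d, and 3 of the 7 kept the pattern in NOD. Another start site of Hdac7 had an anchor in all 4 BL6 libraries. Thymocyte transcription factors had 4 of 38, near the share of all genes, and 0 of the 4 kept it in NOD.

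Developmental regulators and long neuronal genes showed the reverse. Of 32 developmental regulators 0 had the H3K27ac pattern and 6 had the Smc1 pattern. These were Neurod1, Pax6, Lhx1 and Zic1 of the nervous system, Hand2 of the heart and limb and Nkx2-1 of the lung and thyroid. All 6 had anchors in both Smc1 and neither H3K27ac library in NOD. Of 28 long neuronal genes 0 had the H3K27ac pattern and 10 the Smc1 pattern, among them the adhesion genes Lsamp, Opcml, Robo2 and Cdh8 and the scaffold genes Dlg2 and Magi2. In NOD 3 of the 10 kept it. The 6 marker lists of other blood and stromal cell types, with 10 to 19 genes each, had 0 or 1 gene with the H3K27ac pattern and 0 to 2 with the Smc1 pattern. Developmental regulators and housekeeping genes had similar CG content, with medians of 25.5 and 25 CG dinucleotides over genes, against 15.5 for long neuronal genes and 15 for all genes.

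The share of genes reached in each library gives the same lists without requiring a pattern. Over all genes, 36.5% and 66.0% had an anchor at a start site in H3K27ac libraries 1 and 2, and 55.8% and 45.5% in Smc1 libraries 1 and 2. Housekeeping genes stood at 56.8% and 83.8% for H3K27ac against 18.9% and 10.8% for Smc1. Developmental regulators stood at 15.6% and 59.4% against 78.1% and 68.8%, and long neuronal genes at 3.57% and 42.9% against 85.7% and 67.9%. Genes of T cell receptor signalling stood at 68.4% and 92.1% against 52.6% and 36.8%. The groups did not overlap in these 4 lists, while over all genes they did. Thymocyte transcription factors were reached by both antibodies, at 63.2% and 92.1% against 76.3% and 47.4%, and these groups overlapped. So did genes of the double-positive stage, at 52.2% and 82.6% against 60.9% and 43.5%. In NOD, housekeeping genes stood at 75.7% and 70.3% against 40.5% and 18.9%, and developmental regulators at 18.8% and 15.6% against 71.9% and 71.9%.

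**Figure D2:**
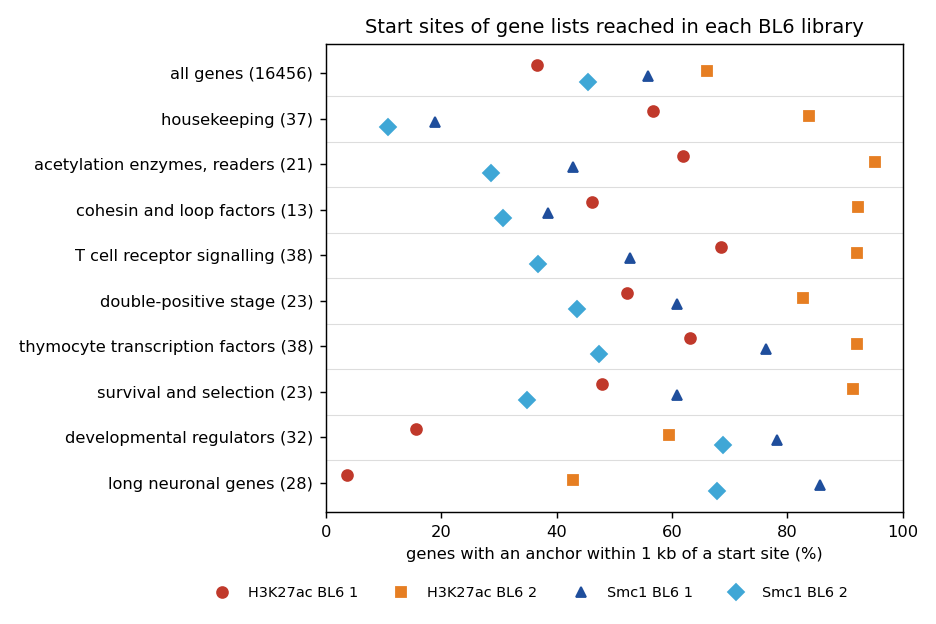
Share of genes of each list with an anchor within 1 kb of a start site (%, x axis) in the 4 BL6 libraries, with the number of genes of each list in parentheses. Housekeeping genes have both H3K27ac points to the right of both Smc1 points (56.8% and 83.8% against 18.9% and 10.8%), and the 2 lists at the bottom have the reverse order.

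Far from genes, H3K27ac contacts made up a smaller share than Smc1 contacts. PET ends more than 500 kb from any protein-coding gene body made up 1.14% and 0.59% of H3K27ac ends and 3.09% and 2.97% of Smc1 ends. PET ends within a gene body made up 55.4% and 55.6% for H3K27ac and 48.8% and 48.6% for Smc1. PETs with both anchors over 100 kb from a gene made up 3.98% and 2.83% for H3K27ac and 7.49% and 7.87% for Smc1. The groups did not overlap in these 3 measures, and the NOD libraries had the same order in the last, at 3.48% and 2.22% against 6.71% and 9.15%. The H3K27ac share over 100 kb from a gene was 0.44 times that of Smc1 (exact two-sided permutation p = 0.333).

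**Figure D3:**
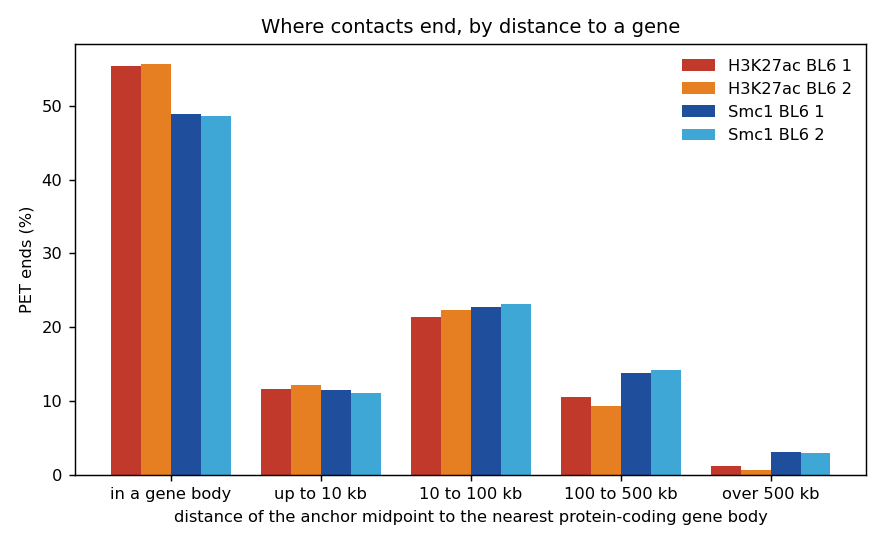
Share of PET ends (%, y axis) by distance of the anchor midpoint to the nearest protein-coding gene body (x axis), with 1 bar per BL6 library. The H3K27ac bars are taller in gene bodies (55.4% and 55.6% against 48.8% and 48.6%) and shorter beyond 500 kb (1.14% and 0.59% against 3.09% and 2.97%).

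Bins of 25 kb gave a graded difference. With edgeR (quasi-likelihood test, Benjamini-Hochberg), 0 of 72003 bins (0.0%) passed an adjusted p of 0.05 in either direction, and the smallest adjusted p was 0.135. DESeq2 called 20 bins, all higher in H3K27ac. At an unadjusted p under 0.05, edgeR had 1137 bins higher (1.58%) and 8166 lower (11.3%) in H3K27ac. Libraries did not overlap in 12201 bins that were higher in H3K27ac (16.9%) and 22294 that were lower (31.0%). The median log2 difference of H3K27ac to Smc1 was -0.23 over all bins. It was -0.03 for bins centred in a gene body, 0.01 within 10 kb of one, -0.28 from 10 to 100 kb, -1.01 from 100 to 500 kb and -2.87 beyond 500 kb. With bins at 0 in both libraries of a group set to a floor of 3 PETs over the group, the last was -2.30 and the others were the same. Of the 2575 bins beyond 500 kb, 0.85% were higher and 71.9% lower without overlap, and 40% held 0 listed PETs in both H3K27ac libraries. These farthest bins held a mean of 3.31 and 5.20 PETs in the H3K27ac libraries and 28.5 and 39.5 in the Smc1 libraries. The H3K27ac libraries were the shallower ones, and the part of depth in this gradient was not tested. Bins had to pass an expression filter that either group could meet, and bins at 0 in both H3K27ac libraries passed through Smc1 alone. The medians and shares of far bins are thus partly set by that filter. The shares of PET ends by distance used no such filter. Leaving out H3K27ac library 1 raised the called bins to 17366, of which 14720 were lower, and leaving out H3K27ac library 2 raised them to 22548, of which 18348 were lower. Without Smc1 library 1 there were 4 called bins, and without Smc1 library 2 there were 0. In each of these fits the group left with 1 library was assumed to vary like the other pair, and for a lone H3K27ac library that is the technical Smc1 pair.

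The 6 bins with the largest differences each way are a description, since none was called. A bin of chromosome 7 at Igsf23 (chr7:19925001-19950000) held 106 and 65 PETs in the H3K27ac libraries and 0 listed PETs in both Smc1 libraries, but its NOD libraries overlapped. A bin at Clec16a (chr16:10675001-10700000), a gene of endosomal and mitochondrial turnover, held 93 and 131 PETs against 22 and 4. A bin within Mad1l1 (chr5:140250001-140275000), a gene of the mitotic checkpoint, held 250 and 212 PETs against 56 and 17. A bin at Rhoh (chr5:65850001-65875000), a blood-specific GTPase gene needed for T cell receptor signalling, held 95 and 54 PETs against 28 and 6. The remaining 2 lay near Ly6m (chr15:74900001-74925000) and at Cd6 (chr19:10775001-10800000). The groups did not overlap in these 6 bins when scaled to the PETs of each library. That order was a condition of the choice, here and for the lowest bins. In NOD, 5 of the 6 had the same order, against 14.8% of all bins tested and 38.8% of bins higher without overlap in BL6. The 6 lowest bins had 0 listed PETs in both H3K27ac libraries and 56 to 122 PETs in each Smc1 library. They included a bin 457.6 kb from the nearest gene on chromosome 16 (chr16:47575001-47600000), with 85 and 104 Smc1 PETs, and a bin 561.8 kb from Negr1 on chromosome 3 (chr3:155975001-156000000), with 56 and 106. Another lay within Dcc, the gene of a netrin receptor of axons. Others overlapped genes too, Zfp952 and Zfp763 on chromosome 17 and Zfp280d on chromosome 9, and the last lay 169.3 kb from Slc16a7. In NOD, 5 of these 6 kept the order, with the Zfp280d bin as the exception. That order was held by 36.6% of all bins tested and by 70.3% of bins lower without overlap in BL6. H3K27ac library 1 and H3K27ac NOD library 1 both held few PETs on some chromosomes of these bins. Their shares were 1.13% and 0.97% on chromosome 16 and 1.34% and 0.80% on chromosome 18. The BL6 Smc1 libraries had 3.94% and 3.50% on chromosome 16 and 3.71% and 3.57% on chromosome 18. The part of this in the NOD order was not tested.

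Gene windows reached 5 kb either side of both ends of a protein-coding gene. Values are CPM, PETs on a counts-per-million scale over all gene windows of a library, which suits comparison of libraries and not of genes. With edgeR (quasi-likelihood test, Benjamini-Hochberg), 0 of 17162 genes (0.0%) passed an adjusted p of 0.05 in either direction, with a smallest adjusted p of 0.929. At an unadjusted p under 0.05 edgeR had 288 higher (1.68%) and 562 lower (3.27%) in H3K27ac. DESeq2 called 4 genes, all higher in H3K27ac: Cd6 (adjusted p = 0.00163), H2-Ke6, Gm10840 and Gbp6. Without H3K27ac library 1 edgeR called 516 genes, and without H3K27ac library 2 it called 3851, with the lone library again assumed to vary like the Smc1 pair. Libraries did not overlap at 2662 genes that were higher in H3K27ac (15.5%) and 4101 that were lower (23.9%). Of the 2662, 865 (32.5%) had the same order without overlap in NOD, against 15.0% of all genes tested. Of the 4101, 2057 (50.2%) did, against 26.2%.

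Cd6 and Cd4, surface receptor genes of T cells, were among the highest genes named by size. Genes named by size, highest and lowest, were chosen among those whose BL6 groups did not overlap, so that order was fixed by the choice. Cd6 (chr19:10789339-10830062) encodes a surface receptor that binds ALCAM and tunes T cell activation. It stood at 514.8 and 305.1 CPM in the H3K27ac libraries and 34.6 and 11.5 CPM in the Smc1 libraries. Every H3K27ac value lay above every Smc1 value, and the log2 difference was 4.09 ± 0.76 (SE; edgeR unadjusted p = 0.00143). NOD libraries gave 351.8 and 617.1 CPM for H3K27ac and 42.2 and 8.32 CPM for Smc1. Cd4 (chr6:124864693-124888247), the coreceptor used for the sort, stood at 555.7 and 159.8 CPM against 45.8 and 19.4 CPM. The groups did not overlap, with a log2 difference of 3.36 ± 0.82 (SE).

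The other highest genes ranged from a cytokine receptor gene to a chromatin enzyme gene. Il21r, the interleukin 21 receptor gene, stood at 817.2 and 168.4 CPM against 64.7 and 73.3 CPM. Nfatc3, a calcium-responsive transcription factor gene, stood at 216.6 and 148.3 CPM against 27.9 and 30.9 CPM. Ccnd3, the cyclin gene that drives thymocyte proliferation, stood at 281.9 and 74.9 CPM against 39.1 and 13.2 CPM. In all 3 genes the H3K27ac libraries lay above the Smc1 libraries, by the choice of the genes, and H3K27ac library 1 lay above library 2. Zfp36, whose product degrades AU-rich messenger RNAs, stood at 474.0 and 76.3 CPM against 30.1 and 18.5 CPM. Rnf166, whose promoter is printed above, stood at 249.3 and 115.2 CPM against 21.2 CPM and 0 listed PETs. Kmt2c, an H3K4 methyltransferase gene of enhancers, stood at 216.6 and 77.7 CPM against 33.5 and 14.1 CPM. Rapgef3, Zfp526 and Sec22c had log2 differences of 2.96, 2.83 and 2.49. With windows at start sites alone these were 0.344, 2.72 and 1.702, so that of Rapgef3 was mostly lost. Without H3K27ac library 1 the log2 differences of the 11 genes ran from 1.34 for Il21r to 3.80 for Cd6, with 1.93 for Rapgef3, 1.56 for Zfp526, 1.701 for Zfp36 and 2.35 for Cd4. In NOD, 9 of these 11 genes had the same order, with Zfp36 and Kmt2c as the exceptions. That order was held by 15.0% of all genes tested and by 32.5% of genes higher without overlap in BL6.

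The 12 lowest genes included several known from tissues other than thymus. Mettl3, which encodes a methyltransferase of adenosine in messenger RNA, had 0 listed PETs in both H3K27ac libraries and 65 and 54 in the Smc1 libraries. Gda, the guanine deaminase gene, had 0 and 2 PETs against 60 and 52, or 0 and 2.88 CPM against 67.0 and 45.9 CPM. Sp9, a transcription factor gene of forebrain interneurons, stood at 0 and 13.0 CPM against 102.7 and 105.1 CPM. Col8a1 and Nid1, genes of the extracellular matrix, stood at 0 and 5.76 CPM against 58.0 and 74.2 CPM, and at 0 and 11.5 CPM against 92.6 and 74.2 CPM. Car3, a carbonic anhydrase gene of muscle and fat, stood at 0 and 11.5 CPM against 71.4 and 83.0 CPM. Pnlip, the pancreatic lipase gene, stood at 0 and 10.1 CPM against 60.3 and 58.3 CPM. In each of these genes both Smc1 libraries lay above both H3K27ac libraries, by the choice of the genes. H3K27ac library 1 had no listed PET in any of them. The other 5 were Zfp952, Slc22a17, Ptchd3, Aadacl2 and L3mbtl4, with log2 differences from -3.59 to -3.31. In NOD, 8 of the 12 genes had the same order, against 26.2% of all genes tested and 50.2% of genes lower without overlap in BL6. The exceptions were Mettl3, Sp9, Zfp952 and Slc22a17. Gda and Pnlip lie on chromosome 19 and Col8a1 on chromosome 16, where H3K27ac library 1 and H3K27ac NOD library 1 held few PETs. With each chromosome scaled by its own total per library, their log2 differences in BL6 were -4.68, -3.14 and -3.83. The part of the chromosome shares in the NOD order was not tested.

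**Figure D4:**
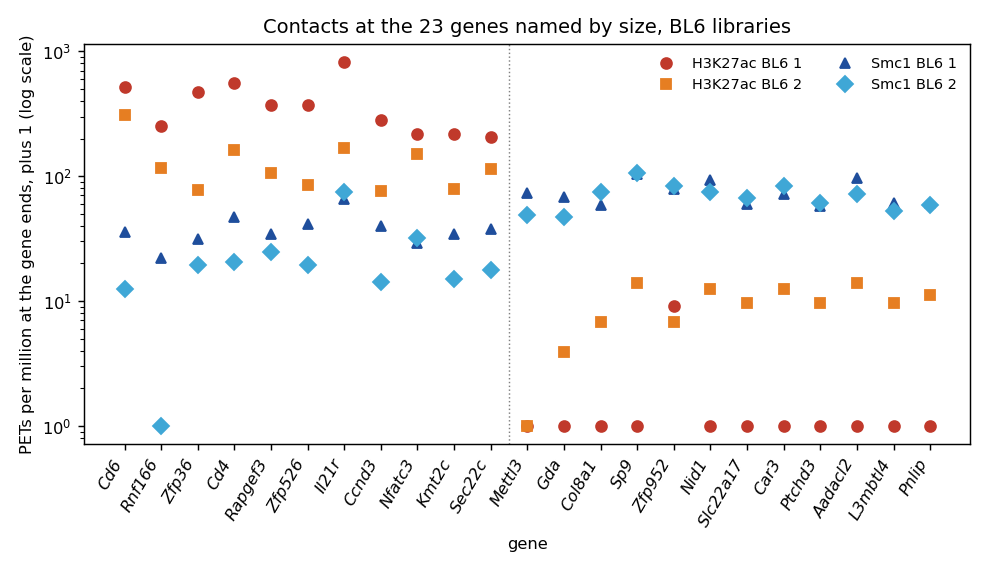
PETs (CPM) at the ends of the 23 genes named by size, plus 1, on a log scale (y axis), with 1 point per BL6 library and genes along the x axis. To the left of the dotted line both H3K27ac points lie above both Smc1 points, as for Cd6 (514.8 and 305.1 against 34.6 and 11.5), and to the right the order is the reverse. This order was a condition of the choice of genes.

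Genes were also named for the most PETs in their windows, a level that is not set per length and ranks no gene above another. Ctcf, which encodes the protein that stops cohesin, was among the 8 so named in H3K27ac, at 1230 and 133.9 CPM against 107.1 and 49.4 CPM. It rested on H3K27ac library 1: without that library the log2 difference was 0.83 in place of 3.01. Its neighbours Carmil2, Ripor1, Pard6a and Acd on chromosome 8 were also among the 8 highest and share anchors with it. Bcl11b, the transcription factor gene of T lineage commitment, was among the 8 highest in both groups, at 384.1 and 449.1 CPM for H3K27ac and 493.3 and 402.6 CPM for Smc1. The groups overlapped, with a log2 difference of -0.14 ± 0.55 (SE). Bcl6, a repressor gene, stood at 523.5 and 248.9 CPM in Smc1 and at 0 listed PETs and 246.1 CPM in the H3K27ac libraries, so that H3K27ac library 2 lay close to Smc1 library 2.

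In gene windows 0 genes of any list were called, and long neuronal genes and developmental regulators had more lower than higher genes. The median log2 difference over all genes was -0.10, with 15.5% higher and 23.9% lower without overlap. Long neuronal genes had a median of -1.69, with 0 of 28 higher and 17 lower without overlap. Developmental regulators had a median of -0.45, with 1 of 44 higher and 17 lower. Hand2 had 0 listed PETs in both H3K27ac libraries and 29 and 63 in the Smc1 libraries. Neurod1 stood at 24.5 and 8.64 CPM against 32.4 and 61.8 CPM. Nkx2-2 stood at 61.3 and 53.3 CPM against 120.5 and 148.3 CPM, a log2 difference of -1.27 that became 0.45 with windows at start sites alone. Olfactory receptor genes, taken by name, had a median of -0.68, with 18 of 336 higher and 129 lower. The 336 are those of 1104 that passed the expression filter. Of them 37 had 0 listed PETs in both H3K27ac libraries and so passed through Smc1 alone. The same held for 3 of the 28 long neuronal genes and 2 of the 44 developmental regulators. In NOD, 22 of the 28 long neuronal genes and 25 of the 44 developmental regulators were lower without overlap, against 26.2% of all genes.

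The other lists, apart from the markers of other cell types, lay nearer the middle. Housekeeping genes had a median of 0.42, with 9 of 45 higher and 7 lower. With windows at start sites alone the median was 0.20, over the 24 of them with a value there. Of the 45, 2 had 0 listed PETs in both Smc1 libraries and so passed the filter through H3K27ac alone. Genes of T cell receptor signalling had a median of 0.12, with 9 of 49 higher and 6 lower. With start-site windows their median was 0.99, over the 35 of them with a value there. Genes of the double-positive stage had a median of 0.17, with 6 of 34 higher and 7 lower. Thymocyte transcription factors had a median of 0.07, with 11 of 52 higher and 10 lower. Cytokine and receptor genes had a median of 0.30 (8 of 32 higher and 4 lower). Cohesin and loop factors had a median of 0.24 (5 of 18 higher and 3 lower), and acetylation enzymes and readers 0.09 (3 of 26 higher and 6 lower). Survival and selection genes had a median of -0.34 (4 of 29 higher and 7 lower). It was 0.08 with start-site windows, over the 20 of them with a value there. Chemokine and migration receptors had a median of -0.15 (4 of 25 higher and 3 lower). Most of these shares lie near the 15.5% and 23.9% of all genes. The split seen at start sites for housekeeping genes and T cell receptor signalling was thus less clear in these windows. The groups overlapped at 29 of the 45 housekeeping genes and at 34 of the 49 genes of T cell receptor signalling. In NOD 13 of the 45 housekeeping genes were higher and 5 lower, and 11 of the 49 genes of T cell receptor signalling were higher and 11 lower, against 15.0% and 26.2% of all genes.

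Within these lists single genes went either way. Cd5 stood at 269.7 and 263.4 CPM against 127.2 and 72.4 CPM, with a log2 difference of 1.37 ± 0.55 (SE). Zap70, the kinase gene downstream of the receptor, stood at 147.1 and 118.0 CPM against 45.8 and 37.1 CPM. Foxp1, a transcription factor gene of T cell quiescence, stood at 228.8 and 158.3 CPM against 54.7 and 81.2 CPM. In these 3 genes both H3K27ac libraries were higher, but only Cd5 kept that order in NOD. Ptprc stood at 40.9 and 31.7 CPM against 92.6 and 106.8 CPM, and Sla, an adaptor gene that lowers receptor levels in double-positive cells, at 8.17 and 64.8 CPM against 203.1 and 143.9 CPM. Gata3, a gene of the CD4 lineage, stood at 32.7 and 73.4 CPM against 131.7 and 98.9 CPM. In these 3 the Smc1 libraries were higher, and Gata3 overlapped in NOD. Rag1 and Rag2, the recombinase genes, stood at 28.6 and 33.1 CPM against 62.5 and 37.1 CPM, and at 32.7 and 43.2 CPM against 33.5 and 46.8 CPM. Cd8a stood at 690.5 and 40.3 CPM against 100.5 and 186.3 CPM, the H3K27ac libraries lying on either side of the Smc1 libraries.

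Medians of the marker lists of other cell types lay between -0.52 and -0.03, against -0.10 for all genes. They were -0.14 for 19 B cell genes, -0.26 for 20 myeloid and dendritic genes, -0.49 for 14 natural killer genes, -0.43 for 17 genes of mature T cells, -0.52 for 12 erythroid genes and -0.03 for 19 genes of thymic stroma. The summed level of the B cell list ranged from 1079.6 to 1299.4 CPM in H3K27ac and from 1129.1 to 1350.6 CPM in Smc1. That of the natural killer list ranged from 747.7 to 796.0 CPM and from 979.1 to 1107.2 CPM. For the myeloid list the ranges were 968.4 to 1203.4 and 1146.7 to 1493.5 CPM, and for mature T cells 600.6 to 931.4 and 1031.1 to 1146.3 CPM. For the erythroid list they were 483.6 to 498.5 and 646.2 to 695.3 CPM, and for stroma 1087.0 to 1461.1 and 1366.6 to 1401.8 CPM. Contacts are listed at silent genes too, and none of the tested markers had 0 listed PETs in both libraries of a group, so these sums do not measure the share of other cells. Between 0 and 4 genes of each marker list were higher in H3K27ac without overlap and between 4 and 7 were lower, against 15.5% and 23.9% of all genes. The lower genes were 6 of 14 on the natural killer list and 7 of 17 on the mature T cell list.

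Partner regions show what the named windows touched. Partners are 25 kb bins ranked by their mean over the libraries of 1 antibody, in CPM over the used PETs of a library (a different total from that of the gene windows), so they describe these libraries and carry no test. The first partner of Cd6 in H3K27ac was a bin in Cd5 (chr19:10725001-10750000), its centre 51.8 kb from Cd6. This pair held 44 and 32 PETs in the H3K27ac libraries and 5 and 3 in the Smc1 libraries, or 99.8 and 26.6 CPM against 2.63 and 1.15. NOD had 30 and 77 PETs for H3K27ac and 0 listed PETs for Smc1. Both genes encode scavenger receptors of the T cell surface, and the Cd5 start site printed above lies in this bin. Cd4 touched a bin with Lag3 and Ptms (chr6:124900001-124925000) by 56 and 20 PETs against 6 and 0. Lag3 encodes a receptor related to CD4 that also binds MHC class II. In NOD that pair had 0 and 31 PETs against 10 and 0, so its groups overlapped there.

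Some other short-range pairs had the same order. Il21r and a bin with Kdm8 and Nsmce1 (chr7:125450001-125475000), 140.8 kb away, were joined by 78 and 15 PETs against 0 and 16. On the same scale these are 176.9 and 12.5 CPM against 0 and 6.11. The second partner of Il21r lay in Il4ra (chr7:125550001-125575000), the interleukin 4 receptor gene, with 30 and 25 PETs against 5 and 0. Ctcf and a bin in Ripor1 (chr8:105600001-105625000) were joined by 109 and 44 PETs against 4 and 9, and in NOD by 38 and 56 against 8 and 0. On that scale, both H3K27ac libraries lay above both Smc1 libraries in each of these pairs, and H3K27ac library 1 was the highest. Other pairs overlapped, such as Cd4 with a bin at Mlf2 (72.6 and 4.98 CPM against 6.32 and 0) and Zfp36 with the bin that holds it (61.2 and 0 CPM against 6.32 and 0). Among the first 3 H3K27ac partners within 200 kb of Ctcf and the highest genes examined, 9 genes in all, 14 of 24 pairs had both H3K27ac libraries above both Smc1 libraries, 10 overlapped and 0 had the reverse. The genes were chosen for high H3K27ac values and the pairs were ranked by their H3K27ac level, so the reverse order could hardly occur. No share over all pairs was counted, and the order is a description.

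Bcl11b and Bcl6 touched distant gene-poor regions, Bcl6 in H3K27ac library 2 but not 1. The first partner of Bcl11b was the same bin for H3K27ac and for Smc1 (chr12:107100001-107125000), its centre 797.9 kb from the gene, in which the only gene is the predicted Gm52008. It was joined by 8 and 35 PETs in the H3K27ac libraries and 59 and 52 in the Smc1 libraries, or 18.1 and 29.1 CPM against 31.1 and 19.8. The groups overlapped, unlike at Cd6. The first Smc1 partner of Bcl6 lay 1074 kb away (chr16:25050001-25075000), with 47 and 23 PETs in Smc1, 0 and 18 in H3K27ac, and no protein-coding gene in the bin. H3K27ac library 1 had few PETs on chromosome 16 as a whole, 1.13% against 3.50% to 3.94% in the other 3 libraries.

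**Figure D5:**
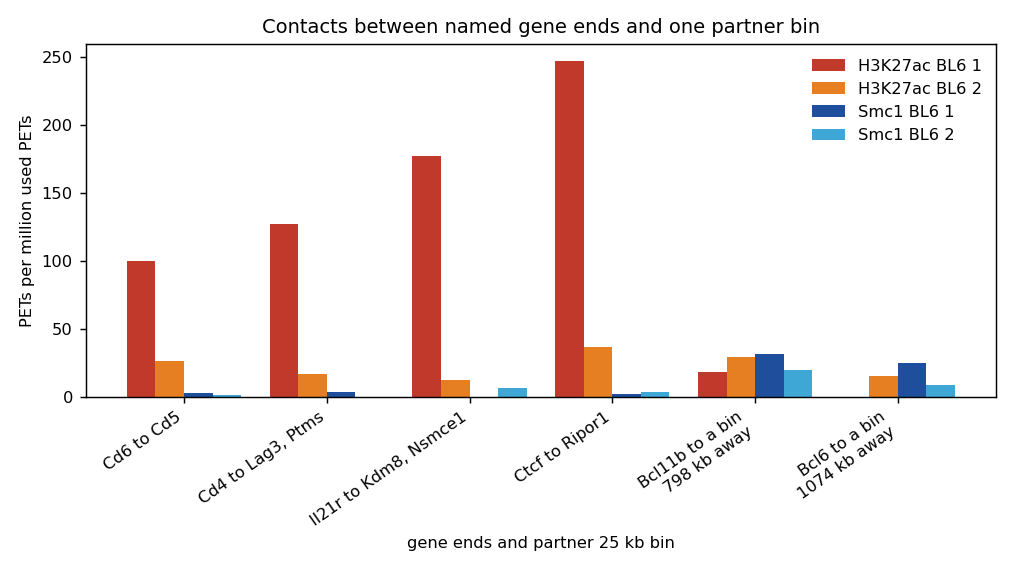
CPM over used PETs (y axis) between the ends of 6 genes and 1 partner bin each (x axis), with 1 bar per BL6 library. The 4 pairs on the left are taller in H3K27ac, as for Cd6 and Cd5 (99.8 and 26.6 against 2.63 and 1.15), and the Bcl11b pair is similar in all 4 libraries (18.1 and 29.1 against 31.1 and 19.8).

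Span separated the antibodies little. The PET-weighted median distance between anchors was 606 and 641 kb for H3K27ac and 583 and 541 kb for Smc1, a difference of 61.5 kb between means (exact two-sided permutation p = 0.333). In NOD the groups overlapped, at 465 and 613 kb against 455 and 588 kb. Among interactions with at least 3 PETs the BL6 difference was 5.29 kb. PETs of 20 to 50 kb made up 5.11% and 4.09% for H3K27ac and 4.59% and 5.34% for Smc1, and those of 1000 to 2000 kb 30.1% and 32.1% against 29.4% and 26.9%. PETs that joined 2 start sites were shorter than the rest in every BL6 library, with medians of 215.8 and 481.9 kb for H3K27ac and 249.9 and 354.5 kb for Smc1.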

How the data were processed

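HiChIP libraries were compared as counts of PETs per listed interaction. The authors deposited, per the file headers, 1 table per library with raw PET counts, reads per anchor as counts, and a p-value and a q-value for each interaction. HiC-Pro, Juicer 1.7.6, MACS and the build GRCm38 are listed, without roles, per the submitters' processing notes. Chromosome X was left out.

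PETs were summed per protein-coding gene (20661 genes of a GRCm38.p6 table), per 25 kb bin and by span. Start sites came from the RefSeq promoter table on GRCm38.p6, which covered 16456 of these genes. Interactions under 10 kb were left out. Counts were compared with edgeR 4.0.16 in R 4.3.3 (quasi-likelihood test, TMM, robust dispersion, default expression filter, Benjamini-Hochberg at 0.05 over all features). DESeq2 1.42.0 was an alternative. Code was tested on simulated counts. Shares have Wilson 95% intervals. Python 3.11.15 with pandas 2.3.3 and scipy 1.17.1 was used otherwise.

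Named genes were called genes, filled to 12 per direction by the largest log2 difference among genes whose libraries did not overlap, with at least 50 PETs in both libraries of the higher group, passing over clone names and keeping 1 per 100 kb. The 8 highest per group and up to 4 per list were added, and 6 bins per direction were named likewise. Some genes that met these rules are not reported here. Other genes were named after their values were seen. The comparison, lists and rules were chosen with earlier results of these data known. The start-site, CG, motif, distance, partner and floor analyses were added after the tables were seen. Replicate numbers are shared by the groups but are not known to pair the libraries. Alternatives were other normalizations, filters, windows and bins, a replicate block, all 8 libraries and each library left out.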

Additional observations from a re-analysis of the deposited data

Results flagged for a closer look

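Tnfrsf4, a costimulatory receptor gene of activated T cells, was lower in H3K27ac than in Smc1 in BL6 (log2 difference -1.79). It stood at 0 and 40.3 CPM against 88.2 and 73.3 CPM, from 0 and 28 PETs against 79 and 83. In NOD it was higher, at 66.6 and 49.5 CPM against 37.2 and 43.3 CPM, from 14 and 15 PETs against 30 and 26. The groups did not overlap in either strain, but the NOD order rests on few PETs. The difference between strains was not tested.

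Chromosome X, which no comparison used, carried 114 listed interactions over the 4 BL6 libraries, from 4 to 62 each. Interactions under 10 kb on chromosomes 1 to 19, also unused, numbered 43273 over the 4 libraries and made up 1.78% and 1.49% of the H3K27ac interactions and 1.78% and 2.10% of the Smc1 interactions. Each library lies above the 3 counts that a count of 0 allows.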

How the results depend on the processing

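Counts of called features depended on the libraries and on the tool. Leaving out each library in turn gave 0 to 3851 called genes and 0 to 22548 called bins, against 0 and 0 with all 4. DESeq2 called 4 genes and 20 bins. The replicate block called 0 genes and 7 bins, though the shared replicate numbers are not known to pair the libraries. All other alternatives run gave 0 calls. The difference in median span of PETs, 61.5 kb, became 5.29 kb among interactions of at least 3 PETs and 40.4 to 82.7 kb without single libraries. For PETs with both anchors at gene ends, the difference of 1.93 percentage points was 1.03 with 2 kb windows and 2.61 with at least 3 PETs. For PETs with an anchor at a start site, 4.15 points became 5.60 with at least 3 PETs. The causes were not tested.

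Among the 23 genes named by size, 0 of 92 log2 differences without single libraries and 0 of 269 under other settings changed sign. These genes were chosen because their groups did not overlap, so leaving out a single library could hardly change a sign. Over all 69 named genes, 8 values of 7 genes changed sign under other settings. These were Bcl11b 0.235, Flt3 0.075 and Galnt2 0.131 with 10 kb windows, Dusp4 0.358 and Polr2a 0.124 with 2 kb windows, Nkx2-2 0.445 and Tfrc 0.332 with start-site windows, and Galnt2 0.009 with interactions counted. Without single libraries, Bcl11b ranged from -0.303 to 0.057, Clic6 from -3.771 to 0.336 and Galnt2 from -0.707 to 0.492. Contacts of 1 PET are not listed, and H3K27ac library 1, the shallowest of the 4, held 440896 PETs.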
